A study of Mus musculus with 54 samples.

Results

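Levels of 8 chemokine and chemoattractant receptor genes were followed in primary mouse microglia that took up alpha-synuclein (aSyn) and in the cells they were mixed with. The genes were taken by symbol from the table of 16632 genes: Cxcr4, Ccr1, Ccr2, Ccrl2, Fpr1, Fpr2, C5ar1 and C3ar1. All 8 passed the filter on low counts, as did 13169 genes in all.

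Chemoattractant receptors are membrane proteins, most of which signal through G proteins of the Gi class and steer the migration of immune cells along a gradient. Cxcr4 is the receptor of Cxcl12, Ccr1 and Ccr2 bind inflammatory CC chemokines, and Ccrl2 is an atypical receptor that binds chemerin without classical G protein signalling. Fpr1 and Fpr2 sense formylated peptides from bacteria and mitochondria, and C5ar1 and C3ar1 bind the complement fragments C5a and C3a. Microglia, the resident macrophages of the brain, use such receptors to move towards injury and debris.

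The cells came from neonatal C57BL/6 brains, grew over astrocytes and were shaken off, and no group carried a genetic change, as far as the labels say. Cells of the group Untreated_Ctrl received nothing (6 libraries). Cells of the group aSyn_Donor were given 1 µM aSyn carrying the dye Atto-488 for 14 h (4 libraries). Donors (22 libraries) had the same aSyn treatment, Acceptors (22 libraries) had been stained with CellTracer Violet for 15 min in place of aSyn, and both were sorted apart after 15, 30, 60, 150 or 300 min of co-culture. Libraries named for 0 min also exist for both, and the protocol text does not describe that time. Whether untreated and aSyn_Donor cells passed through a sorter is not given in the sources used here, and cells of 2 brains shared a flask. The replicate numbers 1 to 4 are called experiments below, and the libraries of experiment 4 carry a separate range of facility numbers in their names. The labels also give passage 3 for experiment 1, passage 1 for experiment 2 and passage 2 for experiments 3 and 4. Same-numbered untreated libraries were summed, which left 52 units with 3 or 4 per group. The labels do not say that experiments used separate animals, so p-values measure the spread between these units.

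Libraries held 7807389 to 15537493 counts. Levels are CPM, counts scaled to a common library size with TMM factors. The ribosomal precursor Rn45s took 13.4% to 22.3% of the counts in experiment 4 and 1.42% to 13.5% in the others. The 14 microglia markers, led by C1q genes and Csf1r, summed to 9133 to 16800 CPM in experiments 1 to 3. In experiment 4 they summed to 3196 to 3755 CPM in aSyn-exposed cells and to 5804 to 6955 CPM in the others. Siglech, a defining marker of resting microglia, was at 0 counts in 37 units. These values stand beside every result that rests on experiment 4, and their part in those results was not tested. In such bulk samples, fewer cells of a type and less RNA per cell cannot be told apart.

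Cxcr4 was the one member that passed the test for a change over time, in donors and in acceptors. Its promoter is shown because its level carries most of the results. RefSeq places the start site of Cxcr4 at position 128592299 on the minus strand of chromosome 1 (GRCm38.p6), and the 250 bases before it span chr1:128592300-128592549. Capitals mark a TATA box (TATAAA or its reverse complement, here overlapping on both strands) and 3 GC boxes (CCGCCC).

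Cxcr4: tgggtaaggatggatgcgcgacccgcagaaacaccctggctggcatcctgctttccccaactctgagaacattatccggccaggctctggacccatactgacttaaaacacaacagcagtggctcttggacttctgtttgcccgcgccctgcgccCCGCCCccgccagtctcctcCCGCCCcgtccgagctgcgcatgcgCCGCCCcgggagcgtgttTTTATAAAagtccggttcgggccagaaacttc

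The forward TATA match begins 30 bases before the start site, and the GC boxes begin 95, 75 and 50 bases before it. Searching both strands, a TATA box occurred in 3504 and a GC box in 8901 of 27025 RefSeq promoter windows of this length. Other motifs searched were AP-1 (TGANTCA), the NF-kB consensus, the PU.1 core (GAGGAA), the HIF core (ACGTG) and the ISRE, and none of them matched this window. A match describes letters only.

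Cxcr4 was 2.24-fold higher after aSyn. Untreated cells held 67.5, 93.5, 47.8 and 73.5 CPM in experiments 1 to 4, and aSyn_Donor cells held 163, 198, 148 and 122 CPM. The groups did not overlap, and the cells were higher after aSyn in 4 of 4 experiments. The log2 fold change was 1.16 (SE 0.22, edgeR quasi-likelihood test, adjusted p = 0.00183). Without experiment 3 the adjusted p was 0.0518, at a log2 fold change of 1.05. With only these groups in the fit it was 0.0733. In this comparison 2.5% of all genes were called in either direction, and 2 of the 8 members were called, Cxcr4 and Ccr1. With the replicate number as a block 5 members were called, against 19.2% of all genes, the others being Fpr1, Fpr2 and C5ar1 (lower). Cxcr4 had a log2 fold change of 1.15 in that fit (SE 0.22, edgeR adjusted p = 2.2e-04).

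In donors the level fell back during co-culture. Donors held 236.4, 252.6 and 195 CPM at 0 min (experiments 1 to 3), and 224, 219, 216 and 128 CPM at 15 min. At 150 min they held 83.5, 95.0, 93.3 and 61.7 CPM, and at 300 min 58.9, 75.5, 83.2 and 70.6 CPM. Every donor unit at 300 min lay below every donor unit at 15 min and within the range of untreated cells. The change from 15 to 300 min was -1.45 on the log2 scale (SE 0.22, adjusted p in edgeR 5.96e-04), lower in 4 of 4 experiments, where 0.0759% of genes were called (0.744% with the block). Without experiment 1 it was -1.30 with an adjusted p of 0.355, and with only those 2 groups in the fit the adjusted p was 0.130. Against the aSyn_Donor cells, donors at 300 min were lower by -1.13 (SE 0.22, adjusted p in edgeR 0.0277), in a comparison with 0.0304% of genes called (0.304% with the block). That call was lost without experiment 1, 2 or 3 (adjusted p 1, 0.601 and 0.199) and with only those groups in the fit (0.301). At 0 to 150 min no member was called against aSyn_Donor cells, nor was any other gene (0%), with 119 to 344 genes at an unadjusted p under 0.05. No gene was called there with the block either. With the block, the 300 min call was lost without experiment 1 (0.279) or 2 (0.175).

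In acceptors Cxcr4 was highest at 60 min. At 0 min they held 98.6, 60.2 and 79.9 CPM (experiments 1 to 3), at 15 min 101, 82.9, 116 and 136 CPM, and at 30 min 132, 116, 199 and 138 CPM. At 60 min the values were 185, 152, 145 and 227 CPM, all above the highest untreated unit. By 300 min they were 59.9, 69.4 and 69.8 CPM (experiments 1, 2 and 4). Against untreated cells the log2 fold change was 1.05 at 30 min (SE 0.22, adjusted p in edgeR 0.0335, 0.114% of genes called, 3.6% with the block) and 1.33 at 60 min (SE 0.22, adjusted p in edgeR 0.00691, 0.0683% called, 4% with the block), higher in 4 of 4 experiments each. Both calls were lost without experiment 1 (adjusted p 0.810 and 0.319), without experiment 3 (1 and 0.198) and with only the groups compared in the fit (0.614 and 0.405). With the block and without experiment 3 the 60 min call held (1.27, adjusted p = 0.0128) and the 30 min call did not (0.72, adjusted p = 0.215). With the block and without experiment 1 the 30 min value was 1.06 (adjusted p = 0.0788) and the 60 min value 1.29 (adjusted p = 0.0202). At 0, 15 and 300 min no gene was called without the block (0%), with 749, 839 and 721 genes at an unadjusted p under 0.05. With it 0.995%, 2.25% and 0.623% were called, none of them a member. At 150 min 0.137% of genes were called (4.78% with the block) and no member was. At 15 min the blocked fit without experiment 2 called Cxcr4 (0.91, adjusted p = 0.0497). These comparisons share the untreated cells, and those of donors with aSyn_Donor cells share the latter.

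**Figure D1:**
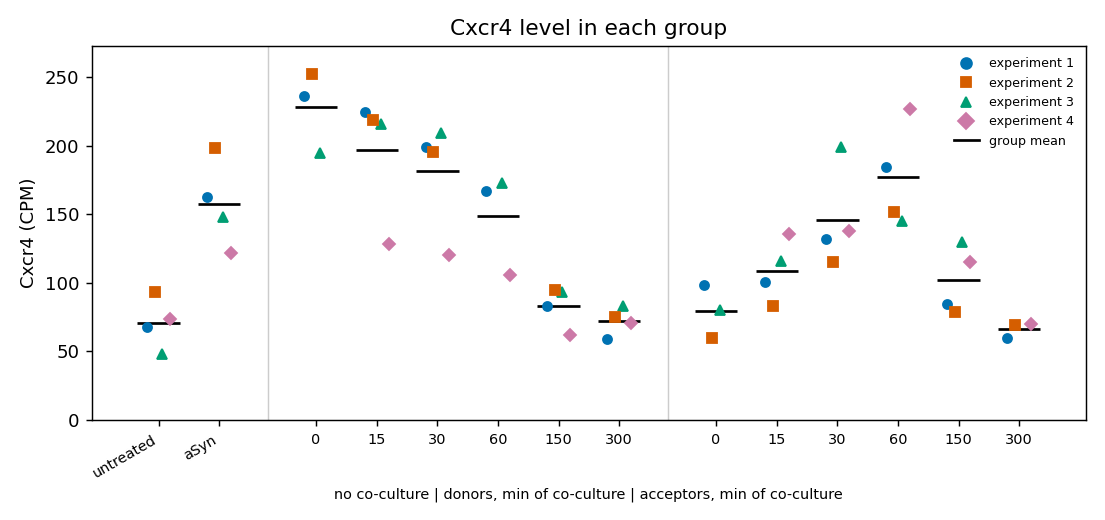
Cxcr4 level in CPM (y axis) in each of the 14 groups (x axis: untreated and aSyn_Donor cells, then donors and acceptors by minutes of co-culture). Each point is 1 unit, coloured by experiment, and the black bar is the group mean. Donors fall from a mean of 197 CPM at 15 min to 72.03 at 300 min, and acceptors peak at 177 CPM at 60 min.

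A test across the 6 times found the change in donors (edgeR F test, adjusted p = 3.81e-05), where 0.0607% of genes were called (0.577% with the block). Without experiment 1 its adjusted p was 0.239 in the fit without the block. With the block, 1 member was called in donors over all units, and 1 without each experiment in turn. The same test in acceptors called 1 gene of 13169, Cxcr4 (adjusted p = 0.0383, 0.00759% of genes, 0.137% with the block). It was lost without any one of the 4 experiments (adjusted p from 0.138 to 1) and with only the acceptor groups in the fit (0.601). With the block the acceptor call held without experiment 2 (0.0439) or 4 (0.0366) and was lost without experiment 1 (0.318) or 3 (0.128). The test of whether the time course differed between donors and acceptors gave an adjusted p of 0.219 for Cxcr4, with no gene called (0%) and 113 genes at an unadjusted p under 0.05. With the block it was called (adjusted p = 0.0260, 0.0456% of genes), as it was with DESeq2 (0.00214). The blocked call was lost without experiment 1, 2 or 3 (0.740, 0.625 and 0.429).

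The group means of donors and acceptors crossed between 30 and 60 min, and the donor mean at 60 min lacks experiment 2. Donors and acceptors at 60 min held 167 and 185 CPM in experiment 1 and 106 and 227 CPM in experiment 4. In experiment 3 donors stayed above acceptors (173 and 145 CPM), and in experiment 4 they were already lower at 15 and 30 min. Relative to 15 min, Cxcr4 at 60 min was 0.746 to 0.826 times as high in donors (3 of 3 experiments lower) and 1.25 to 1.83 times as high in acceptors (4 of 4 higher). The contrast of these changes, chosen after the values were seen, was -1.10 on the log2 scale (SE 0.33, adjusted p in edgeR 1, unadjusted p = 0.00158), with 0% of genes called. From 15 to 300 min Cxcr4 in acceptors was lower in 3 of 3 experiments (-0.72, adjusted p = 1, 0% of genes called with or without the block and 286 at an unadjusted p under 0.05). The contrast of the 300 min changes was -0.73 (adjusted p = 0.9999, 0% of genes called, 0.0152% with the block). Between donors and acceptors of the same time, the log2 fold change was 1.52 at 0 min (SE 0.26, adjusted p in edgeR 0.00148, higher in 3 of 3 experiments, 0.251% of genes called). At 15 min it was 0.85 (SE 0.22, adjusted p in edgeR 0.0483, higher in 3 of 4 experiments, 0.888% called). At 30 to 300 min it lay between -0.29 and 0.31 and was not called, while 0.805%, 0.418%, 0.167% and 0.0304% of genes were. The 0 min call was lost without experiment 1 (adjusted p 0.0900) or 2 (0.142). The 15 min call was lost without experiment 1, 2 or 3 (0.330, 0.328 and 0.186) and with only the groups compared in the fit (0.214). In experiment 4 the donors were the lower ones at 15 min, 128 against 136 CPM.

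By group mean, Cxcr4 was highest in donors at 0 min and ran down to 66.4 CPM in acceptors at 300 min, and all 13 pairs of neighbouring groups in that order overlapped in range. Donors at 0 min have no unit of experiment 4, which held the lowest donor value at 15, 30, 60 and 150 min (128, 121, 106 and 61.7 CPM). Groups accounted for 81.8% and experiments for 2.34% of the variance of its log2 CPM, the largest share between groups among the 8 members. The genes with the most similar course over the 52 units, by Pearson correlation after each experiment's mean was subtracted, were Tgif1 (r = 0.85), Fbxo32 (0.83), 1700017B05Rik (0.83), Fosb (0.82) and Lhfpl2 (0.82). Tgif1 encodes a homeobox repressor, Fbxo32 an E3 ubiquitin ligase subunit and Fosb an AP-1 subunit. Fosb averaged 2.52 CPM in untreated cells, 15.1 in aSyn_Donor cells, 23.7 in donors at 15 min and 2.22 in donors at 300 min. These points share libraries and groups, and the correlations are descriptions.

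Ccr1 and the formyl peptide receptors were high in aSyn-exposed cells and low in the others, with no test past the threshold for a change over time. Fpr1 and Fpr2 lie head to head on chromosome 17, with 3885 bases between their start sites, and their promoters are shown because the genes moved together. For Fpr1 the window is chr17:17883940-17884189 on the minus strand and for Fpr2 chr17:17887574-17887823 on the plus strand (RefSeq, GRCm38.p6). For Ccr1, on the minus strand of chromosome 9, it is chr9:123968693-123968942. Capitals mark TATA boxes, the PU.1 core and, in Ccr1, the NF-kB consensus.

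Fpr1: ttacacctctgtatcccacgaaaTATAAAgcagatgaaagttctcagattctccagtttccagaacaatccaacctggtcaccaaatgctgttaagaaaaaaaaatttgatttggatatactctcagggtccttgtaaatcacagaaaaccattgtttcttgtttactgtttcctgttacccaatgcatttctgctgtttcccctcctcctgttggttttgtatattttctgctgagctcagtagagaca

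Fpr2: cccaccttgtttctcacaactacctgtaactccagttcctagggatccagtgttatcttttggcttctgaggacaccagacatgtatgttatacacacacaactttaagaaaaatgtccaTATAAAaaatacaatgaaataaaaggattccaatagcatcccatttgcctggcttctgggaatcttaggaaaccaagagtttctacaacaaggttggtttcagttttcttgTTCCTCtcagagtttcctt

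Ccr1: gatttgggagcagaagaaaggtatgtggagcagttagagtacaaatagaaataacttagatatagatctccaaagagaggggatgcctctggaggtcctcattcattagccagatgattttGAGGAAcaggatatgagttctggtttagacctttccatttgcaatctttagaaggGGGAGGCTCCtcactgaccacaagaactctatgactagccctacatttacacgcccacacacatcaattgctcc

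The TATA boxes of Fpr1 and Fpr2 begin 227 and 130 bases before the start sites. The PU.1 core of Fpr2, on the reverse strand, begins 19 bases before the start site and that of Ccr1 129 bases before it. The NF-kB match of Ccr1 begins 74 bases before the start site. The PU.1 core occurred in 23.1% and the NF-kB consensus in 7.01% of all windows. Fpr2 overlaps Fpr3 on the same strand in GENCODE vM21, and whether counting used strand or how it split overlaps is not given in the sources used here. Fpr3 is not a row of the table. None of the 50-base words in the last 500 bases of the members' transcripts occurred in another gene.

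Ccr1, a receptor of Ccl3 and Ccl5, was 1.51, 1.48, 1.89 and 1.81 CPM in untreated cells and 9.28, 6.97, 12.5 and 20.9 CPM in aSyn_Donor cells. The groups did not overlap, and experiment 4 was highest after aSyn. The log2 fold change was 2.88 (SE 0.63, adjusted p in edgeR 0.00565, higher in 4 of 4 experiments) and with the block 2.76 (adjusted p = 2.74e-06). Without the block the call was lost without experiment 1 (adjusted p 0.0549) or 3 (0.0920). With the block it held without each experiment (2.50 to 3.03, adjusted p at most 3.45e-04).

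Donors stayed above acceptors in Ccr1 at every time and in every experiment. Acceptors held 0.914 to 4.18 CPM over all times, and donors 2.80 to 29.5 CPM. Within each experiment every aSyn-exposed unit lay above every untreated or acceptor unit. The edgeR test called Ccr1 at 15 min (log2 fold change 2.47, SE 0.63, adjusted p = 0.0403) and 30 min (2.42, SE 0.62, adjusted p = 0.0471). The 15 min call was lost without any one experiment (adjusted p 0.0872 to 0.212), without experiment 4 at a log2 fold change of 1.79. The 30 min call was lost without experiment 1, 2 or 3 (0.163, 0.0740 and 0.392) and without the low-count filter (0.0565). Both were lost with only the groups compared in the fit (0.104 and 0.213). With the block Ccr1 was called at all 6 times, with log2 fold changes of 1.86 at 0 min, 2.24 at 15, 2.18 at 30, 2.11 at 60, 2.35 at 150 and 1.94 at 300 min. The blocked calls at 0 min were lost without experiment 1 or 3 (adjusted p 0.0862 and 0.351) and at 300 min without experiment 1, 2 or 4 (0.110, 0.0554 and 0.161). With the block 4.28%, 9.57%, 10.8%, 6.7%, 5.19% and 1.38% of all genes were called at these times, in order.

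Fpr1, the high-affinity formyl peptide receptor, held 1.01, 6.32, 19.4 and 1.36 CPM in untreated cells and 7.81, 18.5, 61.2 and 153 CPM in aSyn_Donor cells. The groups overlapped, and aSyn_Donor cells were higher than untreated cells of the same experiment in 4 of 4 experiments. On the log2 scale the within-experiment differences were 2.78, 1.52, 1.65 and 6.67, so experiment 4 stood apart. Without the block the edgeR log2 fold change was 3.12 (SE 1.10, adjusted p = 0.123), and with it 2.67 (SE 0.57, adjusted p = 8.61e-04). Without experiment 4 the blocked value was 1.74 (adjusted p = 2.23e-06). Without experiments 1, 2 or 3 it was 2.75, 3.30 and 3.22, each with an adjusted p under the threshold. DESeq2 called Fpr1 without the block (adjusted p = 0.0414).

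Fpr2, the formyl peptide receptor with the widest range of peptide and lipid ligands, held 3.03, 26.2, 20.8 and 3.13 CPM in untreated cells. In aSyn_Donor cells it held 18.4, 40.5, 65.7 and 295 CPM, again higher in 4 of 4 experiments with overlapping groups. The edgeR log2 fold change was 2.97 without the block (SE 1.01, adjusted p = 0.107) and 2.26 with it (SE 0.58, adjusted p = 0.00493). Without experiment 4 the blocked value was 1.31 (adjusted p = 0.00104), and without experiment 2 it was 3.44 (adjusted p = 0.00262). DESeq2 called it too (adjusted p = 0.0303).

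**Figure D2:**
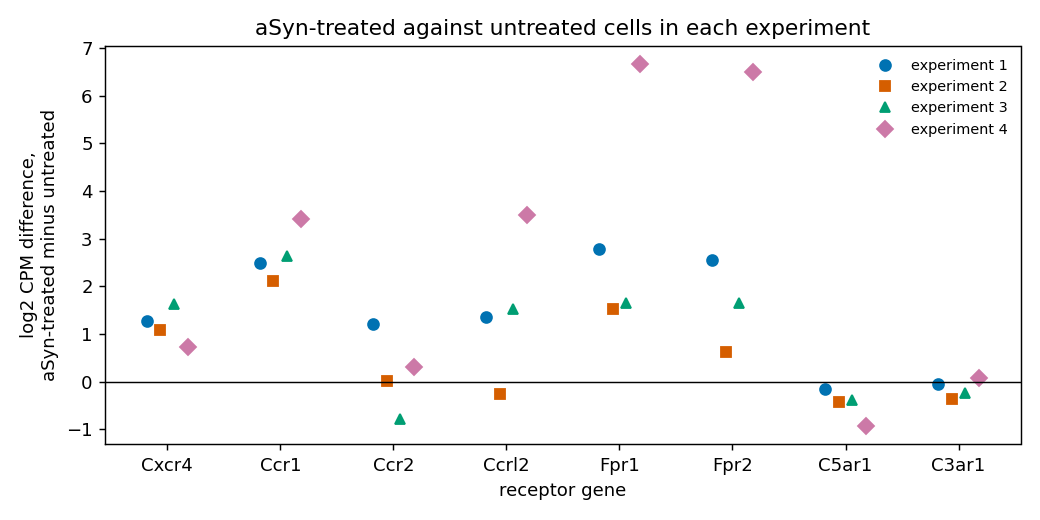
Difference in log2 CPM between aSyn_Donor and untreated cells of the same experiment (y axis) for each of the 8 receptor genes (x axis), 1 point per experiment. Cxcr4, Ccr1, Fpr1 and Fpr2 are above 0 in all 4 experiments, C5ar1 is below 0 in all 4, and experiment 4 is farthest out for Fpr1 at 6.67 and Fpr2 at 6.49.

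The same separation held during co-culture. In donors Fpr1 ranged over all times from 9.46 to 14.3 CPM in experiment 1, from 15.3 to 29.0 in experiment 2, from 72.2 to 112 in experiment 3 and from 156 to 204 in experiment 4. In acceptors it ranged from 3.23 to 6.01, from 5.96 to 8.80, from 20.1 to 28.0 and from 6.66 to 30.3 CPM. Donors of an experiment thus always lay above its acceptors. Fpr2 lay from 18.0 to 24.4, 33.2 to 51.2, 82.5 to 139 and 264.1 to 372 CPM in donors, and from 4.63 to 7.36, 11.8 to 17.5, 21.4 to 37.0 and 8.05 to 38.4 CPM in acceptors.

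Without the block neither gene was called at any time between donors and acceptors (adjusted p 0.177 to 0.843). With it both were called at 15, 30, 60 and 150 min, with log2 fold changes of 1.88 to 2.50 for Fpr1 and 2.13 to 2.48 for Fpr2. At 0 min the blocked adjusted p was 0.177 for Fpr1 and 0.111 for Fpr2, and at 300 min 0.0757 and 0.0530. Without experiment 4 the blocked fit called both at all 6 times, with log2 fold changes of 1.20 to 1.81 for Fpr1 and 1.43 to 1.82 for Fpr2. In the blocked fit the Fpr1 calls at 15 and 150 min were lost without experiment 1 (adjusted p 0.0542 and 0.0536), and that at 150 min also without 3 (0.0593). The 30 min call was lost without experiment 1, 2 or 3 (0.0559 to 0.117) and the 60 min call without 3 (0.0602). For Fpr2 the calls at 15, 60 and 150 min were lost without experiment 1 (0.0863, 0.0834 and 0.113), and those at 15 and 150 min also without 3 (0.0548 and 0.0565). Over all 8 members and 6 times, 4 calls were made without the block and 16 with it, where 0.0304% to 0.888% of all genes were called without the block and 1.38% to 10.8% with it.

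**Figure D3:**
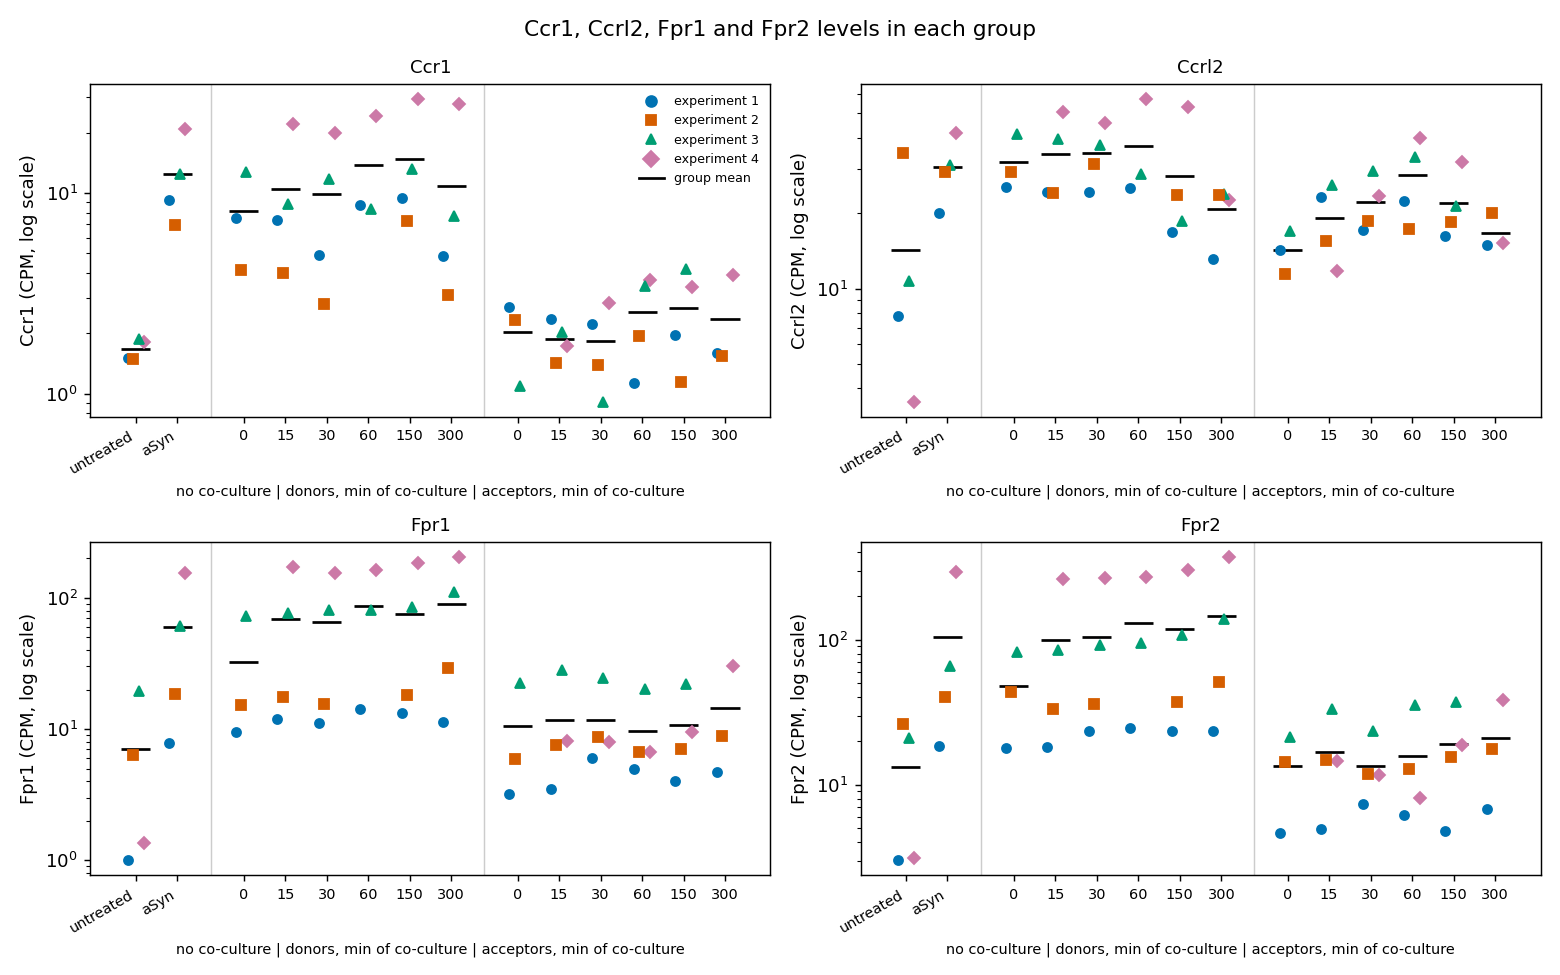
Levels of Ccr1, Ccrl2, Fpr1 and Fpr2 in CPM on a log axis (y) in each of the 14 groups (x), with 1 point per unit coloured by experiment and a black bar for the group mean. For Ccr1, Fpr1 and Fpr2 the aSyn_Donor and donor points of an experiment lie above its untreated and acceptor points, and experiment 4 is highest among donors.

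Over the 52 units Fpr1 and Fpr2 were each other's most similar gene (r = 0.98 within experiments), followed by Ms4a6d for Fpr1 (0.96) and Aoah, which encodes a lipase that inactivates endotoxin, for Fpr2 (0.97). Ccr1 was most like Ncf4, a subunit of the phagocyte NADPH oxidase (0.92), and Mmp8, neutrophil collagenase (0.92), and it correlated with Fpr2 at 0.88. Cxcr4 correlated with Fpr1 at 0.12 and with Ccr1 at 0.23. Experiments accounted for 41.3% of the variance of Fpr1, 33.9% of Fpr2 and 19.4% of Ccr1.

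Neutrophils carry Fpr1, Fpr2 and Ccr1, so their markers were read beside these genes. Of 11 neutrophil markers 4 are rows of the table (S100a8, Camp, Mmp8 and Cxcr2). Their sum was 1.20 to 2.53 CPM in untreated and 2.94 to 62.9 CPM in aSyn_Donor cells. In experiment 4 it was 56.4 to 80.7 CPM in aSyn-exposed cells and 2.53 to 8.76 CPM in the others, most of it Mmp8, which reached 71.3 CPM. It was also higher in aSyn-exposed cells without overlap in experiment 1 (3.53 to 7.36 against 1.69 to 2.25 CPM) and experiment 2 (3.57 to 5.33 against 1.35 to 2.54 CPM). In experiment 3 the ranges overlapped (1.85 to 4.57 against 0.281 to 2.32 CPM). With the block Mmp8 was called between aSyn_Donor and untreated cells (log2 fold change 2.88, adjusted p in edgeR 3.15e-04). S100a8 reached at most 8.46 CPM and Cxcr2 0.863 CPM. Camp was at 0 in 33 units, and S100a8 and Cxcr2 were at 0 in 13 units each. Of 8 monocyte markers 5 are rows, and in experiment 4 their sum, mostly Ms4a4c, was at least 186 CPM in aSyn-exposed cells and 5.88 to 25.1 CPM in the others. In experiment 1 that sum was 42.0 to 58.4 CPM in aSyn-exposed cells and 16.55 to 34.97 CPM in the others. The ranges overlapped in experiment 2 (174 to 208 against 142 to 390 CPM) and in experiment 3 (55.7 to 67.7 against 14.9 to 65.4 CPM). The part of these markers in the Fpr1, Fpr2 and Ccr1 results was not tested.

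Ccr2, the receptor of Ccl2 and a marker of infiltrating monocytes, was close to the limit of detection. It ranged from 0 to 6.36 CPM over the 52 units, and 3 units held 3 counts or fewer. Untreated cells held 2.32, 2.18, 1.20 and 1.58 CPM and aSyn_Donor cells 5.60, 2.20, 0.636 and 2.01 CPM, so the groups overlapped. No comparison called it, with or without the block. Experiments took 58.5% of its variance, and its most similar genes were Hddc3 (r = 0.56) and Tmem35a (0.55). Both are low as well, with group means of 0.367 to 1.19 CPM for Hddc3 and 0.291 to 2.93 CPM for Tmem35a.

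Ccrl2, which presents chemerin to cells that carry Cmklr1, was not called over all units. Untreated cells held 7.77, 34.9, 10.7 and 3.54 CPM and aSyn_Donor cells 20.04, 29.3, 31.0 and 41.7 CPM. The aSyn_Donor cells were above untreated cells in 3 of 4 experiments, all but experiment 2, and the groups overlapped. The log2 fold change of 1.09 did not pass the edgeR test (SE 0.42, adjusted p = 0.154, with the block 0.0534). Without experiment 2 it did (2.12, adjusted p = 0.0157, and with the block 2.05, adjusted p = 7.13e-04). Acceptor means ran from 14.2 CPM at 0 min to 28.3 at 60 min and 16.7 at 300 min, and donor means from 37.1 CPM at 60 min to 20.9 at 300 min.

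Over all 52 units no comparison called Ccrl2. In the blocked fit without experiment 2 it was called between acceptors and untreated cells at 15, 30, 60 and 150 min (log2 fold changes 1.54, 1.67, 2.10 and 1.63, adjusted p = 0.0356, 0.0210, 0.00260 and 0.0176). In the blocked fit without experiment 4 it was called between donors and acceptors at 0 min (1.16, adjusted p = 0.0112). Its most similar genes were Ifrd1, a transcriptional coregulator (r = 0.86), and Col4a3bp, a ceramide carrier (0.83), and its correlation with Cxcr4 was 0.53.

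C5ar1, the receptor of the anaphylatoxin C5a, was lower in aSyn_Donor than in untreated cells by the fit with the block. Untreated cells held 396, 435, 439 and 370 CPM and aSyn_Donor cells 356, 322, 334 and 194 CPM, and the groups did not overlap. The edgeR log2 fold change was -0.44 (SE 0.20, adjusted p = 0.233, lower in 4 of 4 experiments), and with the block -0.47 (SE 0.16, adjusted p = 0.0343). The blocked call was lost without experiment 2 (adjusted p 0.147), 3 (0.128) or 4 (0.0678, at -0.32).

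C5ar1 in acceptors lay below the untreated cells of the same experiment in every pair at 0, 15, 30, 60 and 300 min, without a call over all units. At 0 min they held 272, 335 and 276 CPM (experiments 1 to 3), below the untreated range, and at 15 min 292, 317, 288 and 272 CPM. The edgeR log2 fold changes were -0.48 and -0.49 (adjusted p = 0.869 and 0.651, with the block 0.109 and 0.0890). Without experiment 4 the blocked fit called C5ar1 at 0, 15 and 30 min (-0.53, -0.51 and -0.42, adjusted p = 0.0102, 0.0185 and 0.0288). Donors and acceptors did not pass the test for a difference at any time, with log2 fold changes from -0.18 to 0.17. Most like C5ar1 were Gatm (r = 0.90), an enzyme of creatine synthesis, and Hsd17b4 (0.85), a peroxisomal enzyme, and its correlation with Fpr1 was -0.61. In experiment 4, where the microglia markers were lowest, donors held 180 to 229.2 CPM and acceptors 272 to 387 CPM. The order was reversed in experiment 1, with donors at 311 to 413 CPM and acceptors at 272 to 307 CPM. In the remaining experiments the ranges of donors and acceptors overlapped. The part of the microglia markers in these differences was not tested.

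C3ar1, the receptor of C3a, passed no test. It held 2015, 2819, 1847 and 1826 CPM in untreated cells and 1965, 2192, 1569 and 1944 CPM in aSyn_Donor cells, with a log2 fold change of -0.15 (SE 0.19, adjusted p in edgeR 0.737). Its group means lay between 1830 and 2193 CPM. Experiments took 76.1% of its variance and groups 9.16%. Its most similar genes were G530011O06Rik (r = 0.64) and Cntn1 (0.62).

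**Figure D4:**
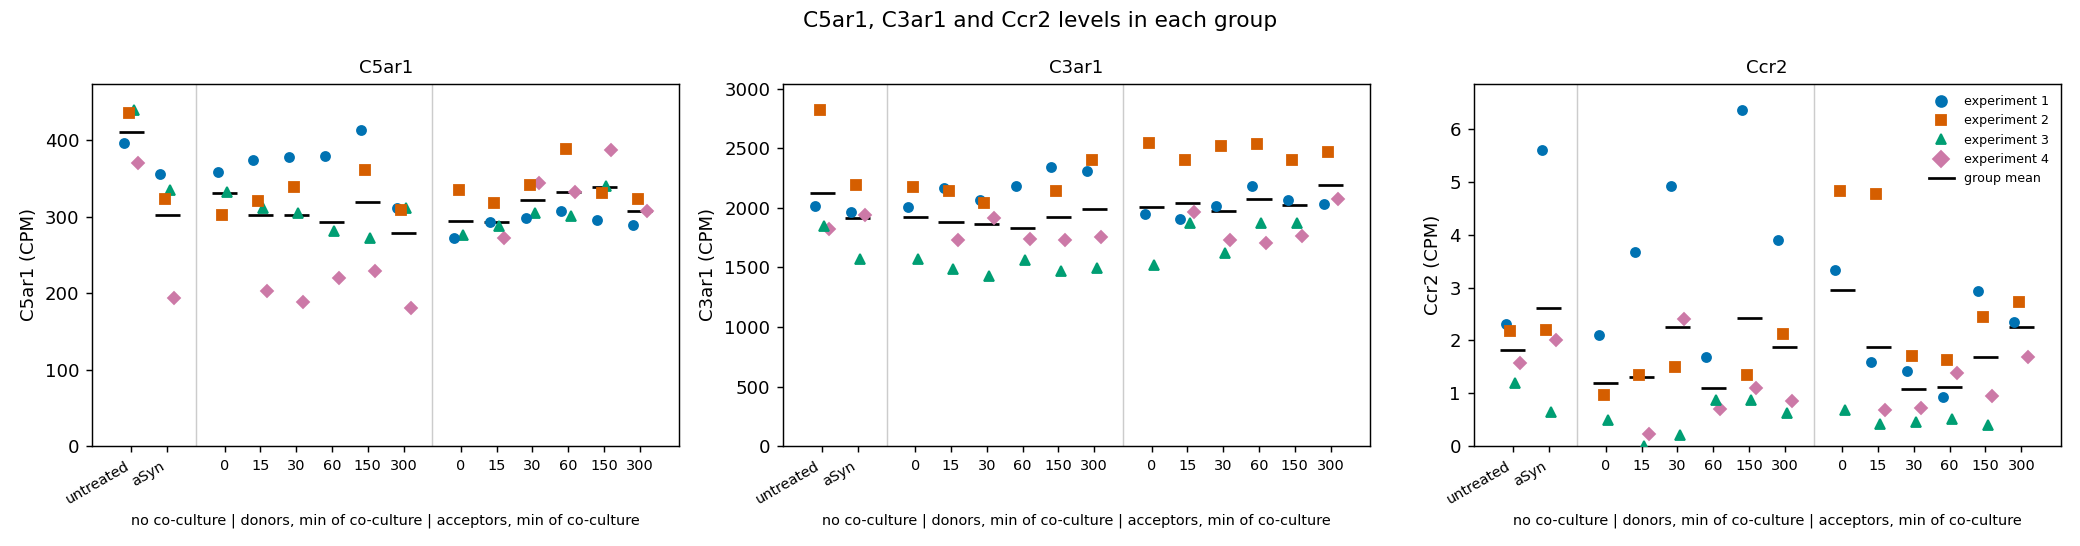
Levels of C5ar1, C3ar1 and Ccr2 in CPM (y axes from 0) in each of the 14 groups (x), with 1 point per unit coloured by experiment and a black bar for the group mean. Untreated cells have the highest C5ar1 mean at 410 CPM, C3ar1 group means span 1830 to 2193 CPM, and Ccr2 stays at or below 6.36 CPM.

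**Figure D5:**
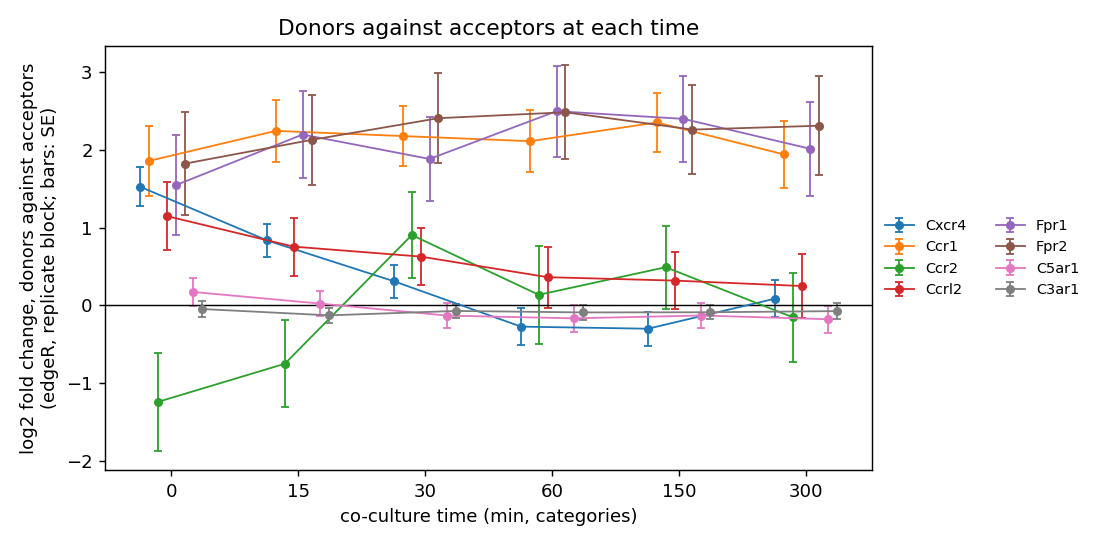
Log2 fold change of donors against acceptors (y axis; edgeR with the replicate block, bars are SE) at each co-culture time in minutes (x axis, evenly spaced categories) for the 8 genes. Ccr1, Fpr1 and Fpr2 stay between 1.54 and 2.50, Cxcr4 goes from 1.52 at 0 min to -0.27 at 60 min, and C5ar1 and C3ar1 stay near 0.

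Other genes of the pathway were read from lists of receptors, ligands and signalling proteins. Of 38 other chemoattractant receptors 29 are rows and 21 were tested, and none was called between aSyn_Donor and untreated cells, at a median log2 fold change of -0.14 beside -0.04 for all genes. With the block 2 were higher and 2 lower, 4 of 21 beside 19.2% of all genes, a share near the background. The chemerin receptor Cmklr1 was higher in donors than in acceptors at 60 min, 112 ± 10.01 (SD, n = 3) against 34.4 ± 18.1 CPM (SD, n = 4), or 1.70 on the log2 scale (SE 0.41, adjusted p in edgeR 0.0472), and was called at 15 and 30 min as well. With the block Cmklr1 was lower in acceptors than in untreated cells at 15, 30 and 60 min. The log2 fold changes were -1.15, -1.02 and -1.03 (edgeR adjusted p = 0.0325, 0.0478 and 0.0439). Between aSyn_Donor and untreated cells Cmklr1 was called in neither fit. It was the only list receptor called in any comparison without the block.

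Of 22 ligand genes 16 were tested. None was called between aSyn_Donor and untreated cells, 13 of 16 had a positive log2 fold change, and their median was 1.15 beside -0.04 for all genes. With the block 8 were higher and 1 lower, at a median of 0.77, 9 of 16 beside 19.2% of all genes. Among them, named after their values were seen, were C3, the precursor of C3a (log2 fold change 2.08 with the block, adjusted p = 0.00103), Ccl5, a Ccr1 ligand (2.51, adjusted p = 0.0113), and Saa3, an acute-phase protein (2.81, adjusted p = 0.00389). Ccl4 was the lower one (-1.36, adjusted p = 8.41e-04). Camp counts both as a ligand precursor and as a neutrophil marker. Of the 8 higher genes, Saa1 was at 0 counts in 30 units and Camp in 33. The ligand genes summed to 4627 to 39180 CPM in aSyn_Donor cells, with a median of 7798 CPM. In untreated cells the sum was 2254 to 6224 CPM, with a median of 3383 CPM, so the ranges overlapped. Over all units Saa3 alone reached 22700 CPM and Ccl5 13780 CPM.

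Of 46 signalling genes 44 were tested, and between aSyn_Donor and untreated cells 2 were lower and none higher. Rgs18, a regulator that shortens G protein signals, was 1.38 ± 0.95 against 8.56 ± 2.41 CPM (± SD, n = 4 in both groups), which is -2.61 in log2 units (SE 0.74, adjusted p in edgeR 0.0450). Pik3cg, the catalytic subunit of PI3K gamma, was 27.2 ± 5.31 against 44.9 ± 11.9 CPM (± SD, n = 4 in both groups), at -0.72 (SE 0.21, adjusted p in edgeR 0.0480). The block gave 8 higher and 10 lower, 18 of 44 beside 19.2% of all genes, of which 1178 were higher and 1346 lower. The Src-family kinase Lyn was higher in donors than in acceptors. Lyn was 403 ± 49.5 against 215 ± 37 CPM at 30 min (± SD, n = 4 in both groups, 0.91 in log2 units, SE 0.18, adjusted p in edgeR 0.00558). The median log2 fold change over the 44 genes was -0.0031 between aSyn_Donor and untreated cells, beside -0.04 for all genes.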

How the data were processed

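For 54 libraries the authors deposited a table of unnormalized counts, with gene symbols as rows, per the file headers. Libraries were QuantSeq forward 3′ libraries read as single reads of 50 bases, per the labels' protocols, so a count is a read near a transcript's 3′ end, and levels rest on the annotated 3′ ends. STAR, Partek, DESeq2 and the build mm10 are named in the submitters' processing notes; versions, annotation and use of strand are not given in the sources used here. A deposited normalized table was not used.

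Groups came from the group label and experiments from the number in the title. Same-numbered untreated libraries were summed, which left 52 units in 14 groups. Counts were tested with edgeR 4.0.16 in R 4.3.3 (TMM, filterByExpr with a minimum count of 10, quasi-likelihood F test, group means over all units), in 21 pairwise comparisons, 3 F tests over the 6 times and contrasts of contrasts. Benjamini-Hochberg adjustment ran over all 13169 genes tested, and genes were called at an adjusted p-value under 0.05. CPM used TMM-scaled totals, and correlations used log2 CPM with a prior count of 2. Totals of 7807389 to 15537493 counts set the counting precision.

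Same-numbered units deviated together from their group means (mean correlation across genes 0.339 to 0.593 per comparison, lowest single pair 0.199; pairing from the labels' replicate numbers), so the fit with the replicate block is given where it changes a call. Alternatives were the replicate block, DESeq2 1.42.0, DESeq2 size factors, no low-count filter, only the groups compared, untreated libraries kept separate, removal of Rn45s and leaving out each experiment; leaving out each experiment in the blocked fit and the contrast of 60 against 15 min were chosen after seeing the data. The fits were tested on simulated counts that held no shared effect of an experiment. That test therefore cannot show how either fit behaves with the correlation between same-numbered units seen here.

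The members and gene lists were chosen with earlier results of these data known. Named beside the members are the list genes called in any pairwise comparison (at most 3 rises and 3 falls per list) and the genes most correlated with each member (5 for Cxcr4, 2 for the others). A signalling gene that this rule names is not reported here. Promoters are RefSeq windows (GRCm38.p6, the build that mm10 names), and gene overlaps come from GENCODE vM21.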

Additional observations from a re-analysis of the deposited data

Results flagged for a closer look

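Within groups of 4 units, 8 of 80 member-by-group sets had a highest or lowest unit far from the other 3 (Dixon's test at the 95% level, for which chance gives about 1 in 20). In experiment 4, Cxcr4 was lowest in donors at 15 min (128.3 CPM) and at 30 min (120.7 CPM). C5ar1 was lowest in donors at 300 min of experiment 4 (180.4 CPM), and Fpr2 was highest in its aSyn_Donor cells (294.8 CPM). Fpr1 was highest in acceptors of experiment 3 at 30 min (24.52 CPM) and at 60 min (20.1 CPM). In experiment 1, Ccr2 was highest in donors at 150 min (6.358 CPM), and Ccrl2 was lowest in donors at 300 min (13.17 CPM).

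Cxcr4 moved in opposite directions in the populations between 15 and 60 min. From 15 to 30 min the median ratio of its CPM was 0.918 in donors (lower in 4 of 4 experiments) and 1.349 in acceptors (higher in 4 of 4), a difference that was not tested for this pair of times. From 15 to 60 min the median ratio was 0.7996 in donors (lower in 3 of 3) and 1.749 in acceptors (higher in 4 of 4), and the edgeR contrast of these changes had an adjusted p of 1 (unadjusted 0.00158).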

How the results depend on the processing

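The 28 single-gene results called in the fit without the block or in the fit with it were recomputed under 15 other settings. Of these values, 308 kept their side of the threshold, 65 passed it anew and 47 no longer passed it. Results not called without the block entered only through the blocked fit, so the 16 new passes in that fit follow from this choice. No fold change reversed its sign, and the F tests have no direction. With the replicate block, members called numbered 5 in place of 2 between aSyn_Donor and untreated cells, 16 in place of 4 between donors and acceptors and 1 in place of 0 in the test of population by time; the block changed no other count of members called. DESeq2 gave 4 between aSyn_Donor and untreated cells and 1 for population by time. Untreated libraries kept separate gave 4 between aSyn_Donor and untreated cells. With only the groups compared in the fit, the counts were 1 for aSyn_Donor against untreated, 0 in place of 1 for donors against aSyn_Donor, 0 in place of 2 for acceptors against untreated, 1 for donors against acceptors, 0 in place of 1 for 300 against 15 min, and 0 in place of 1 for the acceptor F test; that fit has fewer units. Leaving out 1 experiment gave 0 to 3 for aSyn_Donor against untreated, 0 to 1 for donors against aSyn_Donor, 0 to 2 for acceptors against untreated, 0 to 4 for donors against acceptors, 0 to 1 for 300 against 15 min, 0 to 1 for the donor F test and 0 for the acceptor F test. Leaving out 1 experiment in the fit with the replicate block gave 4 to 5, 0 to 1, 1 to 7 (5 without experiment 4), 7 to 20 (13 without experiment 2, 10 without experiment 3), 0 to 1, 1 and 0 to 1 in that order, and 0 to 1 for population by time. The cause of these changes was not tested. At 0 to 6.36 CPM, counting error limits what Ccr2 can show.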
